A study of Ovis aries with 9 samples.

Results

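Hepatocytes keep their identity through a small network of transcription factors, and 9 genes of that network were followed here in sheep (Ovis aries): HNF4A, FOXA1, FOXA2, FOXA3, CEBPA, CEBPB, NR1H4, ONECUT1 and PROX1. They were taken by gene symbol from a table of read counts per gene and cell, and all 9 had a row among 28837 named genes. The samples were hepatocytes from female sheep livers, 1 sample for each of 9 stages. The stages were virgin ewes, gestational days 40 to 50, 50 to 70, 70 to 80, 90 to 100, 100 to 120 and 140 to 150, and lactating ewes 7 and 15 days postpartum. According to the labels' protocols, cells were freed from cold-stored livers of slaughtered sheep with collagenase, picked by hand, and sequenced with Smart-seq3xpress, a plate method that makes a full-length library from each cell. The 2 lactation stages, the 6 gestation stages and the virgin stage formed 3 groups. The labels name no genotype, treatment, breed, age or number of animals per stage, so every p-value reflects the spread of these stages alone, which may hold differences between animals.

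In mammalian liver, as textbook background, the forkhead proteins FOXA1, FOXA2 and FOXA3 open closed chromatin at liver genes. HNF4A, a nuclear receptor, then holds a wide set of metabolic and secretory genes active, and C/EBP proteins, ONECUT1 and PROX1 act at many of the same enhancers. The factors regulate one another's genes, so that the network tends to keep itself going. NR1H4 encodes FXR, the nuclear receptor for bile acids.

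The table held 3404 cells, 246 to 553 per stage, and 114865665 to 272944124 reads per stage on named genes. Levels are given as CPM (reads of the gene relative to all reads of the stage, scaled by TMM) of the reads summed over the cells of a stage. The 11 hepatocyte markers with a row together held 84838 to 116344 CPM in lactation, 163140 to 221081 CPM in gestation and 186137 CPM in the virgin stage. Markers of other cells were rare but not even. Cholangiocyte markers summed to 0.558 to 3.17 CPM over all stages. Macrophage markers summed to 3.54 to 33.6 CPM, highest on days 90 to 100, with 31.4 CPM on lactation day 7. Neutrophil markers summed to 8.13 to 12.9 CPM in lactation and 1.05 to 2.78 CPM in gestation, and on day 7 of lactation lymphocyte markers peaked at 34.1 CPM and erythroid markers at 224 CPM. In 356 cells at least 2 markers of another cell type had 5 or more reads each, and the log2 changes of the factors were also computed without those cells. Macrophage markers were the most frequent, in 158 of these cells, and in 55 of the 75 on days 90 to 100. The stage of days 100 to 120 stood apart: its 16 listed dissociation and early response genes summed to 940 CPM, against 299 to 427 CPM in the other 8 stages, and its cells had the lowest median number of genes, 5171. Of that sum, the heat shock genes HSPA1A and DNAJB1 held 307 and 178 CPM, against 70.1 and 45.4 CPM in the virgin stage. JUN, JUNB, ATF3, IER2, ZFP36, BTG2 and KLF6 were also highest there. FOS, FOSB, NR4A1 and IER3 were highest on lactation day 7, EGR1 on days 90 to 100 and DUSP1 on lactation day 15, and HSPA8 had no reads.

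All 9 factors were transcribed in every stage, at very unequal levels. Divided by gene length, mean levels over the stages were 32.9 CPM per kb for PROX1, 25.6 for CEBPB, 21.2 for HNF4A and 13.1 for ONECUT1. FOXA2 had 6.22, FOXA3 5.65, FOXA1 5.17 and NR1H4 4.23 CPM per kb, and CEBPA had 0.958. The CEBPA row covers 1088 bases, and whether it holds the whole transcript was not tested, so its level and rank are those of this row. Among 20263 genes tested, PROX1 lay at percentile 93.1 for this measure, HNF4A at 90.8 and CEBPA at 55.6. The order was not the same in each stage. PROX1 stood first in 6 stages, CEBPB stood first on gestational days 100 to 120 and on both lactation days, and CEBPA stood last in all 9. Ranked by level within a gene, stages next to each other differed by less than the SD over the 6 gestation stages throughout for HNF4A, CEBPB, NR1H4 and PROX1. The other 5 factors had 1 wider step each: below days 50 to 70 for FOXA1, below lactation day 7 for FOXA2 and FOXA3, between days 40 to 50 and days 140 to 150 for CEBPA, and between days 70 to 80 and the virgin stage for ONECUT1. The SD of log2(CPM + 1) over the 9 stages had a median of 0.44 for the 8 factors of at least 5 CPM and 0.27 (quartiles 0.20 and 0.39) for all 8282 such genes, and it ran from 0.16 for NR1H4 to 0.64 for FOXA2.

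**Figure D1:**
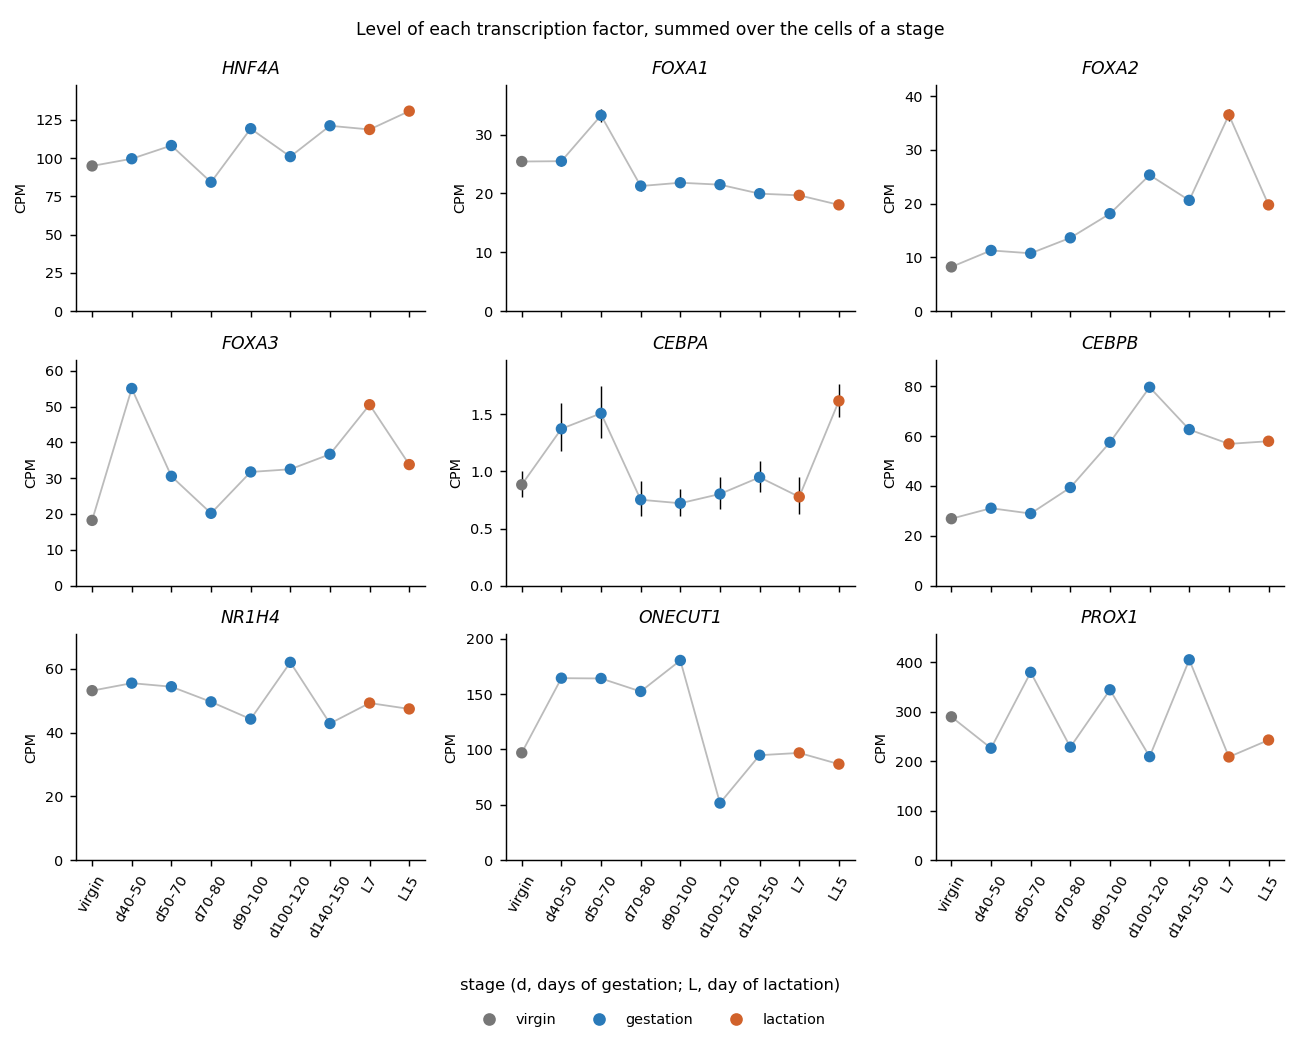
CPM (y axis, from 0, its own scale in each panel) of the 9 factors in each of the 9 stages (x axis), summed over the cells of a stage. Bars are exact 95% Poisson intervals, which cover counting error only. FOXA2 and CEBPB are lowest in the virgin stage, and ONECUT1 has its lowest point, 51.6 CPM, on gestational days 100 to 120.

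None of the 9 factors passed the test in any comparison. The test was edgeR's quasi-likelihood test over all genes, with Benjamini-Hochberg adjustment and a threshold of 0.05. Between lactation and gestation 0 of 9 were called, against 0.0592% of all genes tested (12 of 20263). Between gestation and virgin 0 of 9 were called, against 0.00494% of all genes, and between lactation and virgin 0 of 9, against 0% of all genes. For the trend over gestation, a log2 slope per 100 days on the midpoint of each range, 0 of 9 were called, against 0.0336% of 17848 genes.

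At an unadjusted p under 0.05, the edgeR counts were 1 of 9 factors between lactation and gestation (FOXA2; 9.4% of all genes), 0 of 9 between gestation and virgin (4.45%), 2 of 9 between lactation and virgin (FOXA2 and FOXA3; 4.94%) and 2 of 9 for the trend (CEBPB and FOXA2; 6.62%). Under scaling by library size, and with each cell weighted equally, the first count was 2 of 9 (FOXA2 and HNF4A), and with cells thinned to equal depth it was 0. The third count was 1 of 9 (FOXA2) with each cell weighted equally and with cells thinned. Without the cells that carried other markers, the trend count was 3 of 9, with ONECUT1 added. DESeq2, run as an alternative, called 0 of 9 factors in the first 3 comparisons, against 2.95%, 0.739% and 0.565% of the genes it tested. For the trend it called 1 of 9, CEBPB, against 1.82% of genes. At an unadjusted p under 0.05, DESeq2 counted 0 of 9 between lactation and gestation and 2 of 9 between gestation and virgin (FOXA2 and FOXA3). It counted 2 of 9 between lactation and virgin (the same genes) and 3 of 9 for the trend (CEBPB, FOXA2 and ONECUT1). The share over all genes was not computed for these DESeq2 counts, nor for the edgeR and limma counts under the alternative settings. Those counts therefore cannot be set against all genes. The median size of the log2 change between lactation and gestation was 0.29 over the 9 factors and 0.38 over all genes tested. It was 0.20 against 0.40 between gestation and virgin, 0.43 against 0.47 between lactation and virgin, and 0.55 against 0.42 for the trend. These medians were not matched for level, since all genes tested include genes under 5 CPM, while 8 of the 9 factors had at least 5 CPM. They therefore do not show the factors to be steadier than genes of like level. Among genes of at least 5 CPM, the SD over the stages had a median of 0.44 for those 8 factors and 0.27 for all such genes.

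**Figure D2:**
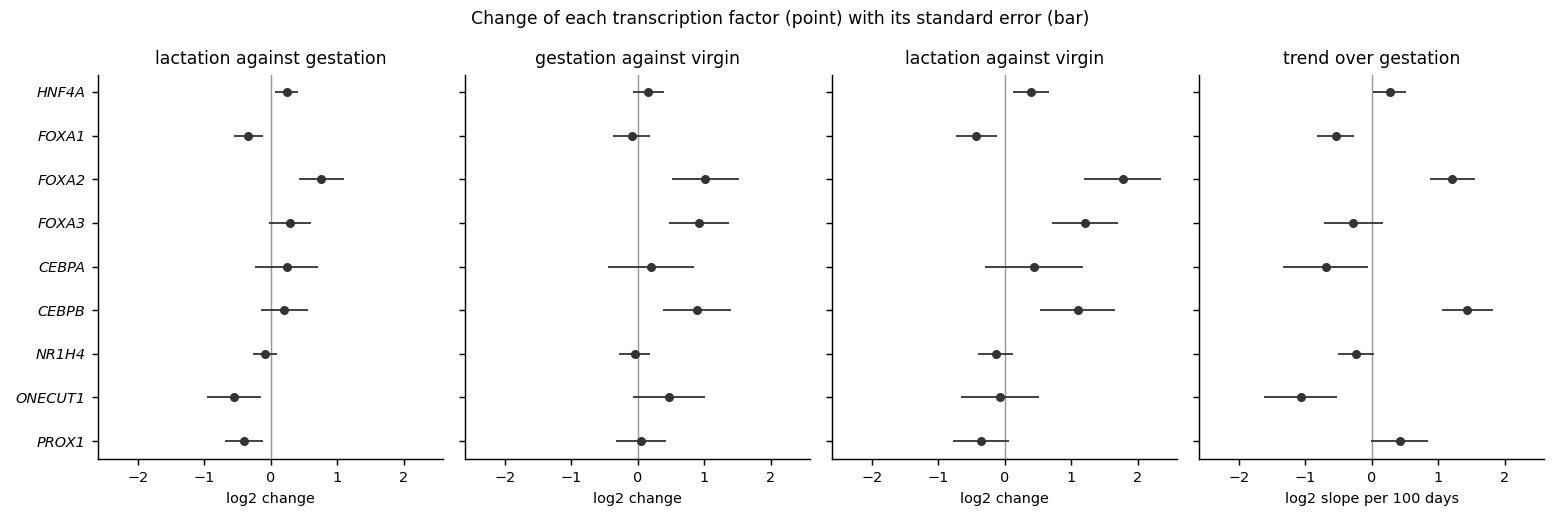
Log2 change (x axis; slope per 100 days for the trend) of each factor (y axis) in the 4 comparisons, with its standard error as the bar and a line at 0. The points farthest to the right are FOXA2 between lactation and virgin, at 1.78, and CEBPB for the trend, at 1.44.

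Scaling matters for small values. Under scaling by library size alone, the median log2 change of all genes between lactation and gestation moved by 0.19, and that between gestation and virgin by -0.14. The median over the 9 factors between lactation and gestation was 0.20, against -0.01 for all genes tested, and under that scaling 0.40 against 0.18. Albumin transcripts alone made up 32004 to 48043 CPM in lactation, 91401 to 113351 CPM in gestation and 80631 CPM in the virgin stage.

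HNF4A, the nuclear receptor that heads the adult hepatocyte programme, was among the steadiest factors. It had 94.9 CPM in the virgin stage, 99.6, 108, 84.2, 119, 101 and 121 CPM in the gestation stages in order of day, and 119 and 131 CPM on lactation days 7 and 15. Day 15 of lactation was the highest stage and days 70 to 80 of gestation the lowest, a ratio of 1.55, and the groups overlapped. Lactation averaged 125 ± 8.48 CPM (SD, n = 2) and gestation 106 ± 13.8 CPM (SD, n = 6). The log2 change was 0.24 (SE 0.17, adjusted p = 0.692, edgeR). Under scaling by library size it was 0.43 (SE 0.16, unadjusted p = 0.0235, adjusted p = 0.287, edgeR), with the median of all genes at 0.18. After each cell was thinned to 155164 reads, HNF4A reads were found in 95.0% to 99.8% of the cells of a stage.

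PROX1, a homeobox factor that works with HNF4A and restrains bile duct genes, had 290.0 CPM in the virgin stage. The gestation stages had 227, 380.0, 229, 345, 209 and 405 CPM in order of day, and lactation days 7 and 15 had 209 and 243 CPM. High and low stages alternated through gestation, with days 140 to 150 highest, and the groups overlapped. Lactation averaged 226 ± 24.2 CPM (SD, n = 2) and gestation 299 ± 87.4 CPM (SD, n = 6), a log2 change of -0.40 (SE 0.29, adjusted p = 0.692, edgeR). The gestation against virgin value, 0.04 (SE 0.38), was -0.10 under scaling by library size. The trend, 0.42 (SE 0.42), was -0.23 without days 140 to 150. Thinned cells with PROX1 reads made up 98.2% to 100.0% of each stage. PROX1 also marks lymphatic endothelium, whose 4 markers summed to 0.224 to 2.37 CPM over all stages. Without the cells that carried other markers, PROX1 levels shifted by -1.79% to 5.27%.

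The 3 FOXA genes did not keep a fixed ratio. FOXA1, which with FOXA2 opens liver chromatin in the embryo, had 25.4 CPM in the virgin stage, 25.5, 33.3, 21.3, 21.8, 21.5 and 20.0 CPM through gestation, and 19.7 and 18.1 CPM on lactation days 7 and 15. Both lactation stages lay just below the lowest gestation stage, a pattern shown by 4.86% of all genes tested. The log2 change was -0.34 (SE 0.21, adjusted p = 0.651, edgeR), with means of 18.9 ± 1.15 CPM in lactation (SD, n = 2) and 23.9 ± 4.96 CPM in gestation (SD, n = 6). Scaled by library size alone the groups overlapped, at 21.4 and 20.0 CPM on lactation days 7 and 15 against 19.4 to 31.6 CPM in gestation.

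FOXA2 had the highest ratio of its top to its bottom stage among the 9 factors. It had 8.21 CPM in the virgin stage, 11.3, 10.7, 13.6, 18.1, 25.3 and 20.6 CPM in gestation by day, and 36.5 and 19.7 CPM on lactation days 7 and 15. The virgin stage lay below every other stage, and day 7 of lactation stood 4.45 times higher than it, while day 15 lay within the gestation range. Lactation averaged 28.1 ± 11.8 CPM (SD, n = 2) and gestation 16.6 ± 5.76 CPM (SD, n = 6). The log2 change between lactation and gestation was 0.76 (SE 0.34, unadjusted p = 0.0495, adjusted p = 0.530, edgeR), and 0.25 without day 7 of lactation. Between lactation and virgin it was 1.78 (SE 0.58, adjusted p = 0.965, edgeR). It was 1.02 (SE 0.51) between gestation and virgin. The slope over gestation was 1.21 (SE 0.35, unadjusted p = 0.00788, adjusted p = 0.455, edgeR), and it stayed between 0.99 and 1.87 when any 1 gestation stage was left out. On lactation day 7, the highest stage, 54 of 246 cells carried markers of other cell types. Without such cells, FOXA2 levels shifted by no more than -3.69% or 3.12%.

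FOXA3, which takes part in glucose and lipid metabolism of the adult liver, had 18.2 CPM in the virgin stage. Gestation stages had 55.0, 30.5, 20.2, 31.7, 32.5 and 36.7 CPM by day, and lactation days 7 and 15 had 50.5 and 33.8 CPM. Days 40 to 50 and lactation day 7 were high, and the virgin stage was again lowest. The virgin stage lay below every gestation stage for FOXA2, FOXA3 and CEBPB, 3 of 9 factors, against 12.3% of all genes tested, and above every gestation stage for none, against 14.8%. Scaled by library size alone, this still held for FOXA2 and FOXA3, but CEBPB had 27.4 CPM on days 50 to 70 and 28.4 CPM in the virgin stage. The FOXA3 log2 change was 0.92 (SE 0.45) between gestation and virgin, 1.21 (SE 0.50, unadjusted p = 0.0362, adjusted p = 0.965, edgeR) between lactation and virgin, and 0.29 (SE 0.31) between lactation and gestation. The lactation against gestation value was -0.03 without lactation day 7. The slope, -0.28 (SE 0.44), was 0.57 without days 40 to 50.

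The ratio of FOXA2 to FOXA1 reads within a stage needs no scaling between stages. It was 0.323 in the virgin stage, 0.442, 0.323, 0.641, 0.830, 1.18 and 1.03 through gestation, and 1.85 and 1.09 on lactation days 7 and 15. Per length, FOXA1 made up 17.6% of FOXA transcripts on lactation day 7 and 49.7% in the virgin stage, and FOXA2 made up 49.4% on lactation day 7 and 24.3% in the virgin stage. Both lactation days lay within or above the values of the last 2 gestation stages, and virgin lay with days 50 to 70. Summed FOXA levels were 11.5 CPM per kb in the virgin stage, 12.8 to 18.8 in gestation, and 25.2 and 16.4 on lactation days 7 and 15.

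**Figure D3:**
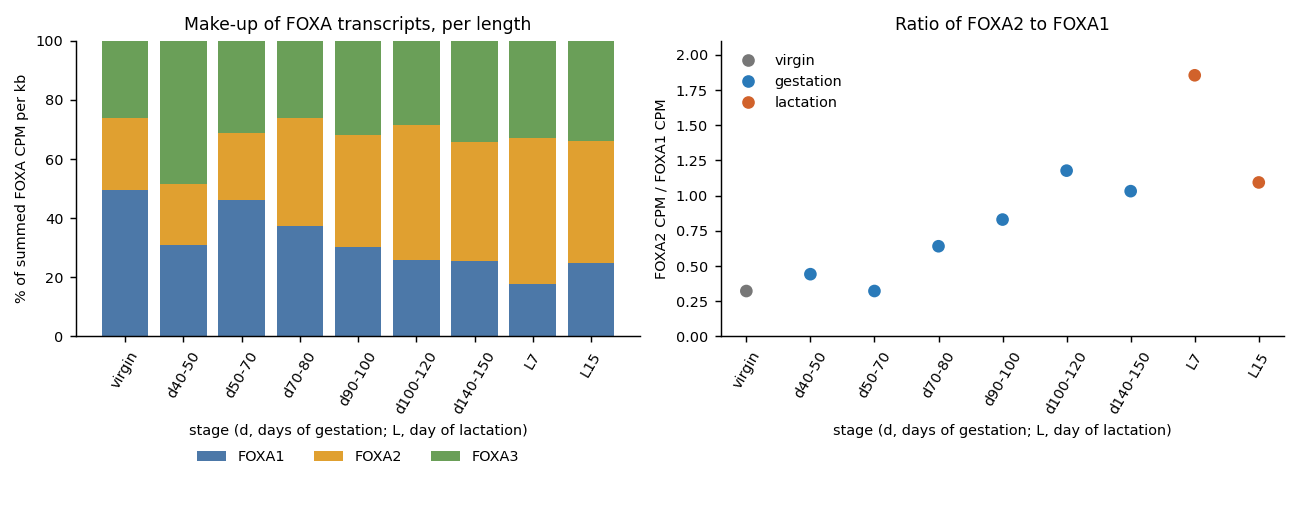
Left, the share of summed FOXA transcripts per length (y axis, %) held by FOXA1, FOXA2 and FOXA3 in each stage (x axis). Right, FOXA2 CPM over FOXA1 CPM for the same stages, which is 0.323 in the virgin stage, above 1 from gestational days 100 to 120 on, and 1.85 on lactation day 7.

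CEBPB, the C/EBP protein tied to the acute phase, liver regeneration and stress, had 26.8 CPM in the virgin stage. It had 31.0, 28.9, 39.3, 57.5, 79.6 and 62.6 CPM in gestation by day, and 56.8 and 57.9 CPM on lactation days 7 and 15. The virgin stage and the first 2 gestation stages were low, the last 3 gestation stages and both lactation stages were high, and the lactation values lay within the gestation range. The slope was 1.44 (SE 0.38, unadjusted p = 0.00550, adjusted p = 0.396, edgeR). DESeq2 gave 1.43 (SE 0.42) with an adjusted p of 0.0380, the only call among the factors by any tool, and adjusted p over all alternatives that kept every stage ran from 0.0380 to 0.489. Left out in turn, single gestation stages gave slopes of 1.18 (without days 100 to 120) to 2.24 (without days 140 to 150), and no call by edgeR. Lactation averaged 57.4 ± 0.752 CPM (SD, n = 2) and gestation 49.8 ± 20.0 CPM (SD, n = 6), a log2 change of 0.20 (SE 0.36, adjusted p = 0.893, edgeR). Between lactation and virgin the change was 1.10 (SE 0.57), and between gestation and virgin 0.89 (SE 0.51).

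The share of cells with several CEBPB reads was higher in the later stages. Thinned cells with 5 or more CEBPB reads were 35.3% of the virgin stage, 38.5%, 34.9%, 59.6%, 74.9%, 74.7% and 73.5% of the gestation stages by day, and 72.0% and 74.1% on lactation days 7 and 15. The median cell had 19.8 CPM in the virgin stage, 22.5 to 64.5 CPM in gestation, and 56.1 and 56.6 CPM on lactation days 7 and 15. CEBPB is itself an early response gene in many cells, and its level was related to the listed dissociation genes across cells in some stages. The Spearman correlation with their sum, within a stage, was above 0 in 9 of 9 stages, but ran from 0.00764 on days 70 to 80 to 0.377 on lactation day 15 with a median of 0.303, over 213 to 495 thinned cells a stage that come from the same sample and depth. Over stages the dissociation sum was 427 CPM in the virgin stage and 299.8, 298.6, 357, 342, 940 and 371 CPM in gestation by day. It was 335 and 403 CPM on lactation days 7 and 15. CEBPB was likewise highest on days 100 to 120, and was lowest in the virgin stage. The part of digestion in the CEBPB level was not tested.

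CEBPA, the C/EBP protein of quiescent hepatocytes in rodents, had the fewest reads of the 9 factors in its row, which may not hold the whole transcript. It had 0.883 CPM in the virgin stage, 1.37, 1.51, 0.752, 0.721, 0.802 and 0.948 CPM in gestation by day, and 0.777 and 1.62 CPM on lactation days 7 and 15. Those values rest on 96 to 488 reads per stage, and the groups overlapped. The 95% counting interval was 1.48 to 1.77 CPM on lactation day 15 and 0.609 to 0.918 CPM on gestational days 70 to 80. The log2 change between lactation and gestation was 0.24 (SE 0.48, adjusted p = 0.909, edgeR), and -0.39 without lactation day 15. In thinned cells CEBPA reads were found in 2.94% to 10.3% of a stage.

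Of 4 other C/EBP genes listed, CEBPD and CEBPG were tested and neither was called. CEBPD, a C/EBP protein of the acute phase, had 50.6 CPM in the virgin stage, 48.1, 47.1, 68.5, 57.4, 143 and 78.1 CPM in gestation, and 117 and 95.9 CPM on lactation days 7 and 15. CEBPD was thus highest on days 100 to 120, as were CEBPB and the heat shock gene HSPA1A, which had 307 CPM there and 55.8 to 94.9 CPM in the other 8 stages. The CEBPD slope was 1.20 (SE 0.54, adjusted p = 0.778, edgeR). CEBPG, a partner without an activation domain, had 14.2 to 29.7 CPM over the stages. CEBPE had 0 to 0.0464 CPM. DDIT3 is listed at 0 in all 9 stages, as is HSPA8, a chaperone gene that every cell uses, so that a 0 here may be a row that the counting did not fill.

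**Figure D4:**
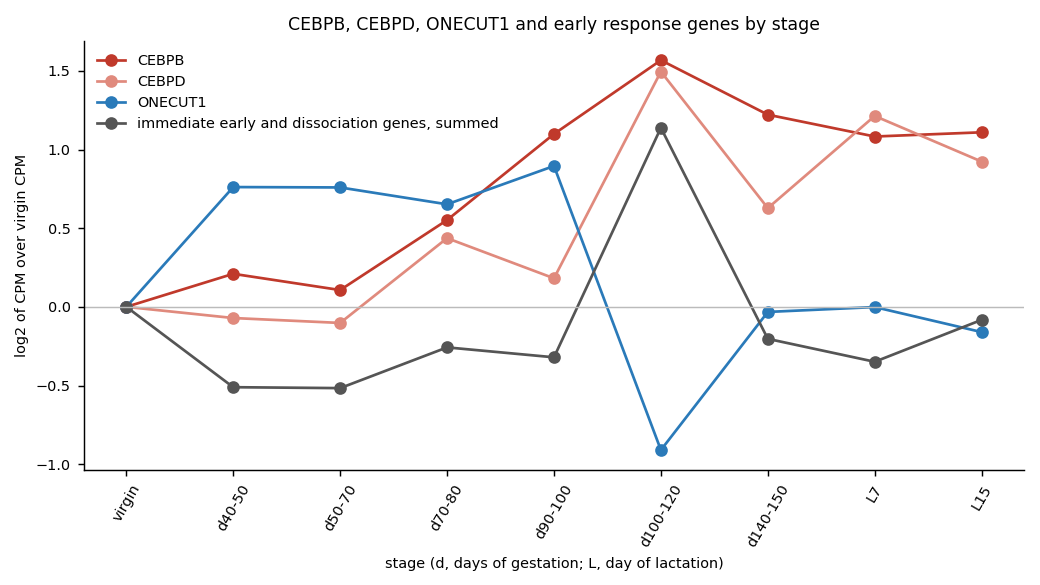
Log2 of the CPM over the virgin CPM (y axis) of CEBPB, CEBPD, ONECUT1 and the summed dissociation and early response genes in each stage (x axis). The dissociation sum and CEBPD peak on days 100 to 120, where ONECUT1 is lowest, and CEBPB stays high after that stage.

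ONECUT1, which acts upstream of HNF4A and FOXA2 in mouse liver development, was lowest on gestational days 100 to 120. It had 97.0 CPM in the virgin stage, 164, 164, 152, 180.4, 51.6 and 94.8 CPM in gestation by day, and 96.9 and 86.8 CPM on lactation days 7 and 15. The first 4 gestation stages were high, while both lactation stages lay close to the virgin stage and to days 140 to 150, so that the groups overlapped. Lactation averaged 91.8 ± 7.15 CPM (SD, n = 2) and gestation 135 ± 50.3 CPM (SD, n = 6). The log2 change was -0.55 (SE 0.41, adjusted p = 0.697, edgeR), and -0.73 (SE 0.25) without days 100 to 120. The slope over gestation was -1.07 (SE 0.56, adjusted p = 0.850, edgeR) and -0.75 without that stage.

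ONECUT1 reads were unevenly spread over cells, with 35.4% to 63.1% of a stage's reads in the 10% of cells that held most, against 26.1% to 32.9% for HNF4A. On days 90 to 100 a single cell held 11.0% of its reads, 4017 in number, and that cell carried markers of another cell type. On the library-size scale the stage had 171 CPM with that cell, 155 CPM without it, and 124 CPM without all 75 of 396 cells that carried other markers. Without the marked cells in every stage, the slope was -1.18 and the log2 change between lactation and gestation -0.43, neither called. That slope had an unadjusted p under 0.05 by edgeR. The median cell had 62.0 CPM in the virgin stage, 118, 78.7, 69.4, 82.8, 18.2 and 61.6 CPM in gestation by day, and 71.6 and 37.5 CPM on lactation days 7 and 15. The low value of days 100 to 120 was there in the typical cell too. Days 50 to 100 stood less far above the virgin stage than in the summed reads, and days 70 to 80 lay just below lactation day 7. Within stages, the Spearman correlation of ONECUT1 with the dissociation sum had a median of -0.101 and ran from -0.464 to 0.115 over thinned cells. The part of digestion in its level on days 100 to 120 was not tested.

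ONECUT2, a close relative of ONECUT1 named here after its values were seen, had a mean of 16.2 CPM per kb, but per length lay level with ONECUT1 on days 40 to 50 and below it in the next 3 gestation stages. It had 265 CPM in the virgin stage, 243, 174, 203, 182, 161 and 216 CPM in gestation by day, and 262 and 279 CPM on lactation days 7 and 15. Its 2 lactation values thus lay above every gestation stage, as for 6.14% of all genes tested, where those of ONECUT1 lay among the lower gestation stages.

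NR1H4 was the steadiest of the 9 factors. It had 53.2 CPM in the virgin stage, 55.5, 54.4, 49.7, 44.3, 62.1 and 42.9 CPM in gestation by day, and 49.3 and 47.5 CPM on lactation days 7 and 15. Days 100 to 120 were highest and days 140 to 150 lowest, a ratio of 1.45, and the groups overlapped. Lactation averaged 48.4 ± 1.31 CPM (SD, n = 2) and gestation 51.5 ± 7.30 CPM (SD, n = 6). The log2 change was -0.09 (SE 0.18, adjusted p = 0.907, edgeR), and 0.10 under scaling by library size. The slope, -0.24 (SE 0.27), was 0.03 without days 140 to 150. Although its total level was highest on days 100 to 120, thinned cells with NR1H4 reads were fewest there, 70.0%, against 79.2% to 91.5% in the other gestation stages, 87.1% and 81.6% on lactation days 7 and 15, and 90.4% in the virgin stage.

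Of the FXR target genes listed, 6 were tested and none was called by edgeR or DESeq2. At an unadjusted p under 0.05, edgeR counted 3 of 5 for the trend, each with a negative slope, against 6.62% of all genes, and 0 of 6 in each of the other comparisons. By sign alone, 5 of 6 were lower in lactation than in gestation (4 of 6 under scaling by library size, 3 of 6 with each cell weighted equally), 6 of 6 were lower in gestation than in the virgin stage, and 5 of 5 had a negative slope. The median log2 changes were -0.24 and -0.34, against -0.01 and 0.06 over all genes tested, and the median slope was -1.04 against 0.01. ABCB11, the canalicular bile salt pump, had 380.0 CPM in the virgin stage, 487, 286, 280.2, 302, 298 and 240 CPM in gestation by day, and 273 and 257 CPM on lactation days 7 and 15. Days 40 to 50 were its highest stage, and the slope was -0.74 (SE 0.31, adjusted p = 0.745, edgeR). FETUB, a plasma protein whose gene FXR induces in human cells, had 1436 CPM in the virgin stage, 566 to 1975 CPM in gestation, and 1114 and 432 CPM on lactation days 7 and 15. SLC10A1, the bile acid uptake carrier repressed when FXR is active, was the only tested gene of its list, at 12.8 and 32.8 CPM in lactation, 18.5 to 28.7 CPM in gestation and 25.2 CPM in the virgin stage.

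Most cells carried most of the factors. Of 3063 thinned cells, the median cell had reads of 7 of the 9 (quartiles 6 and 7), and 93.0% had reads of at least 5. Cells with reads of none numbered 0 of 3063, which allows a share of up to 0.0979%, for counting error only and leaving out the 341 shallower cells. Reads of both HNF4A and PROX1 were found in 97.8% of cells. Days 100 to 120 had the fewest cells with 5 or more factors, 82.4%, and lactation day 7 the most, 96.9%. At least 1 FOXA gene was seen in 83.5% to 97.3% of the cells of a stage. All 3 FOXA genes were seen in 13.9% of virgin cells, in 14.4% to 33.2% of the cells of gestation stages, and in 37.3% and 28.9% of those on lactation days 7 and 15.

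**Figure D5:**
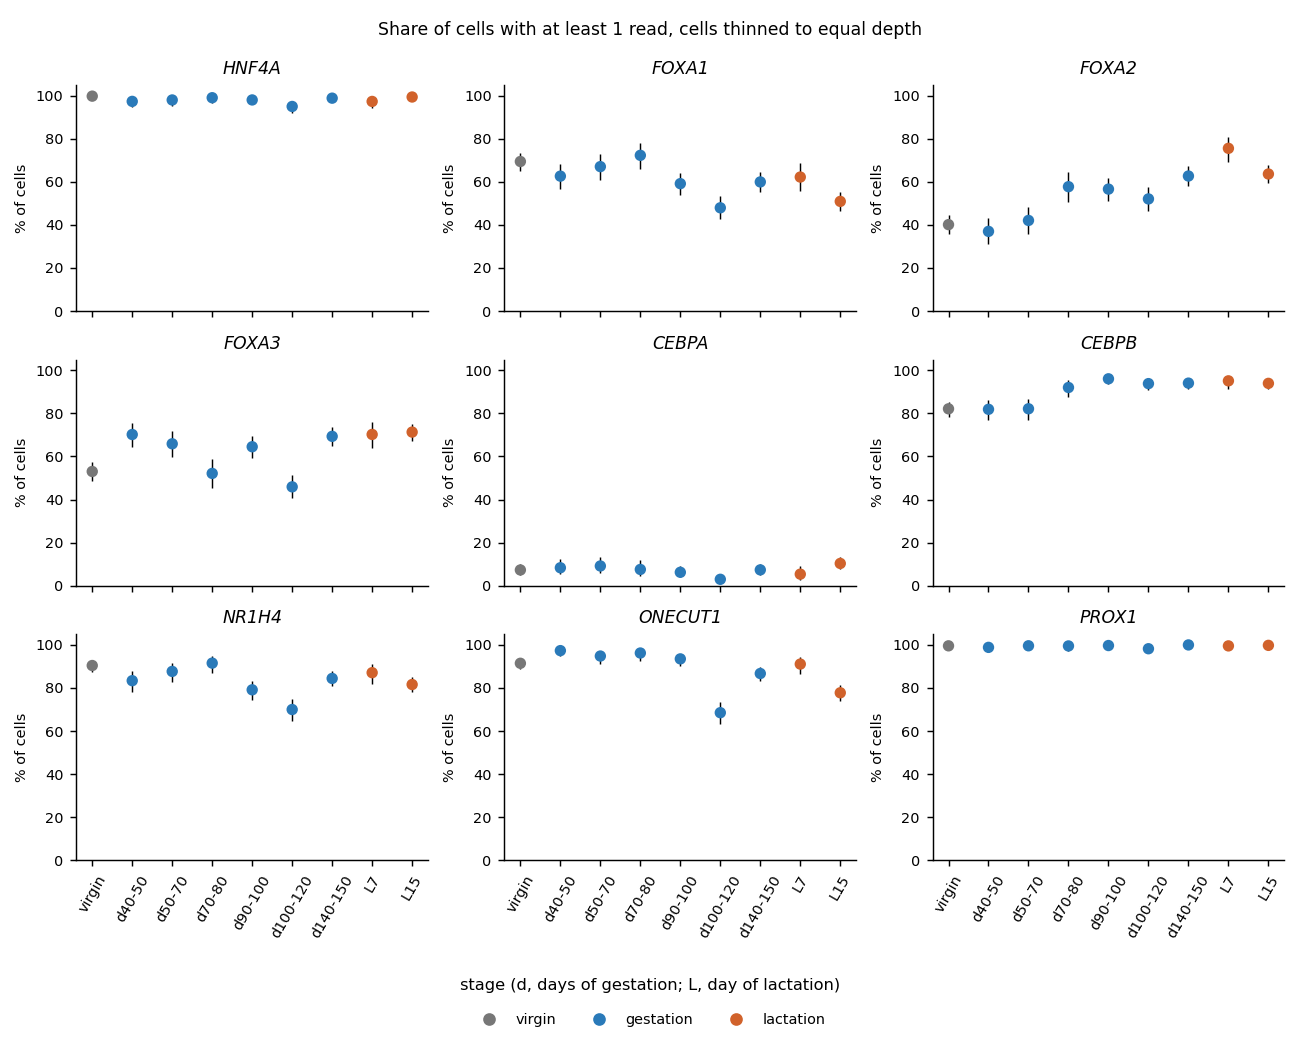
Share of cells with at least 1 read of each factor (y axis, %, 0 to 100) by stage (x axis), after each cell was thinned to 155164 reads. Bars are exact 95% binomial intervals, which cover counting error only. HNF4A and PROX1 lie near 100% throughout, CEBPA near 10% or below, and ONECUT1 is at 68.5% on gestational days 100 to 120.

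FOXA2 reads were found in 75.6% and 63.6% of thinned cells on lactation days 7 and 15, in 37.0% to 62.7% in gestation, and in 40.1% in the virgin stage. Averaged over stages this was 69.6% in lactation and 51.4% in gestation, a difference of 18.2 points, with both lactation stages above every gestation stage (two-sided exact permutation p = 0.0714, adjusted p = 0.321 over 9 factors). For FOXA3 the means were 70.8% in lactation and 61.3% in gestation, a difference of 9.45 points (two-sided exact permutation p = 0.0714, adjusted p = 0.321). With 2 stages against 6, 0.0714 is the smallest p the design allows, so no factor could pass. How many of all genes had both lactation shares above every gestation stage was not counted. The other 7 factors had differences of -5.09 to 4.53 points between lactation and gestation and exact permutation p of 0.429 or more. Without thinning, the FOXA2 means were 72.9% in lactation and 57.6% in gestation, and both lactation stages were still highest. For cells with 5 or more FOXA2 reads they were not, at 27.1% on lactation day 15 and 28.5% on gestational days 100 to 120. For FOXA3 the groups met, at 70.22% on lactation day 7 and 70.19% on days 40 to 50, and without thinning they overlapped, at 73.2% and 74.0% on lactation days 7 and 15 against 52.4% to 76.3% in gestation.

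Across cells within a stage, the factors were on the whole weakly related. Over 36 pairs, the median Spearman correlation over the 9 stages ran from -0.04 (FOXA3 with PROX1) to 0.12 (FOXA3 with CEBPB). Single stages reached 0.35 for HNF4A with CEBPB, on days 90 to 100, and 0.33 for FOXA3 with ONECUT1, on days 70 to 80. On days 90 to 100, 75 of 396 cells carried markers of other cell types. Without them, levels there were 12.1% higher for HNF4A and 17.5% higher for CEBPB on the library-size scale. Correlations without such cells are not given here. FOXA1 and FOXA2 had a value above 0 in 9 of 9 stages, with a median of 0.07. These values come from 213 to 495 thinned cells a stage, which share a sample and a depth. For ONECUT1 with albumin the median was 0.17, with a value above 0 in 8 of 9 stages.

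Among 17 other liver transcription factors, 0 were called in any comparison by edgeR, with 8 higher and 9 lower in lactation than in gestation (12 and 5 under scaling by library size). At an unadjusted p under 0.05 there were 3 higher and 1 lower between lactation and gestation, against 9.4% of all genes. DESeq2 called ATF5, higher in that comparison, against 2.95% of all genes, and CREB3L3, with a positive slope for the trend, against 1.82%. The median log2 change of the 17 between lactation and gestation was -0.09, against 0.20 for the 9 factors and -0.01 for all genes tested. ZBTB20, a repressor of the fetal gene AFP in mice, had 384 and 403 CPM on lactation days 7 and 15, 377 to 576 CPM in gestation and 508 CPM in the virgin stage. ATF5, a stress-responsive bZIP factor, had 457 and 313 CPM on lactation days 7 and 15, 93.9 to 247 CPM in gestation and 302 CPM in the virgin stage. Both ATF5 lactation values lay above the gestation range, as for 6.14% of all genes tested. The ATF5 log2 change was 1.16 (SE 0.30, adjusted p = 0.229, edgeR).

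No target gene of HNF4A, the FOXA proteins or the C/EBP proteins was called in any comparison by edgeR. Between lactation and gestation, an unadjusted p under 0.05 was found for 2 of 9 HNF4A targets, 3 of 6 FOXA targets and 3 of 8 C/EBP targets, all lower in lactation, against 9.4% of all genes in either direction. DESeq2 called albumin (ALB) and CPS1 there, both lower, against 2.95% of all genes, and APOC3 for the trend, with a positive slope, against 1.82%. Of 9 HNF4A targets tested, 7 were lower in lactation than in gestation (6 under scaling by library size), with a median log2 change of -0.39, while HNF4A itself was at 0.24. All 9 were higher in gestation than in the virgin stage (7 under scaling by library size), with a median of 0.28 against 0.06 over all genes tested. APOC3, an apolipoprotein of triglyceride-rich particles, had 11477 and 12960 CPM on lactation days 7 and 15, 12136 to 23564 CPM in gestation and 8999 CPM in the virgin stage. TTR, the thyroid hormone carrier, had 11719 and 16551 CPM on lactation days 7 and 15, 16396 to 37190 CPM in gestation and 22382 CPM in the virgin stage.

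Of 6 FOXA targets, 5 were lower in lactation than in gestation, with a median of -0.83, and of 8 C/EBP targets 6 were lower, with a median of -0.25. Under scaling by library size these counts were 4 of 6 and 5 of 8. Albumin, on both lists, had 48043 and 32004 CPM on lactation days 7 and 15 and no gestation stage under 91401 CPM. Both lactation stages lay below every gestation stage for 4.86% of all genes tested. The albumin log2 change was -1.29 (SE 0.32, adjusted p = 0.212, edgeR). CRP, an acute-phase protein, had 4008 and 3306 CPM on lactation days 7 and 15, 3819 to 5526 CPM in gestation and 4147 CPM in the virgin stage. Several genes stand on more than 1 of these lists, and the 11 hepatocyte markers tested were likewise all lower in lactation than in gestation, also under scaling by library size.

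Genes most like each factor over the stages were found by Pearson correlation of log2(CPM + 1) over 9 stages, among 3717 named genes (3718 for FOXA2) of at least 20 CPM. The values describe these 9 stages. Each gene named was picked as 1 of the 3 highest for its factor, so a high value does not by itself show a relation. How high the top values run for unrelated genes was not tested. FOXA2 was most like ATP2B1 (0.920), KDM1B (0.914) and DNAJB12 (0.901). CEBPB was most like GADD45A (0.931), a stress-response gene, PLIN2 (0.931), a lipid droplet coat protein, and SLC25A47 (0.908), a liver mitochondrial carrier. PLIN2 had 4.92 CPM in the virgin stage, 3.77, 4.73, 8.94, 31.4, 57.7 and 103.3 CPM in gestation by day, and 21.8 and 50.3 CPM on lactation days 7 and 15. Unlike CEBPB, PLIN2 was highest on days 140 to 150.

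FOXA3 was most like the lysosomal CTSA (0.959), CNPPD1 (0.927) and NUCB1 (0.927). FOXA1 was most like ETHE1 (0.891), ATP8B1 (0.890) and ABCC2 (0.889), a canalicular export pump. HNF4A was most like TNIP1 (0.938), HTR1D (0.903) and INHBE (0.899), a secreted hepatokine. NR1H4 was most like SPCS2 (0.909), HHEX (0.908), another liver transcription factor, and RNF125 (0.887). PROX1 was most like RNF4 (0.924), CADM1 (0.898) and SEC63 (0.855), and genes like ONECUT1 included EML5 (0.880) and ENO4 (0.845). CEBPA lay under 5 CPM and was not compared.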

How the data were processed

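Hepatocytes were picked by hand and turned into 1 Smart-seq3xpress library per cell, per the labels' protocols. The submitters' processing notes name featureCounts 2.0.1, HISAT2 2.1.0 and Trimmomatic 0.39. The genome build, the strand setting and whether molecular identifiers were collapsed are not given in the sources used here. The authors deposited whole-number counts per gene and cell with no normalization, as read counts. A table of normalized values held no value other than NA and was not used. Of 28861 rows, 24 named no gene (0.474% of reads) and stayed out. No cell was filtered out and doublets were not called.

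The counts of a stage's cells were added up and tested with edgeR 4.0.16 in R 4.3.3 (filterByExpr, TMM, glmQLFit, glmQLFTest) with a term per group over all 9 stages. The standard error is the log2 change over the square root of F. The trend used the 6 gestation stages. Shares came from cells thinned to 155164 reads, the 10th percentile, which kept 3063 cells and left out 341 shallower ones. They have exact (Clopper-Pearson) 95% intervals, and groups were compared by exact permutation over 28 arrangements. Alternatives used DESeq2 1.42.0 and limma 3.58.1 on log2(mean CPM + 1). Other steps ran in Python 3.11.15 with pandas 2.3.3, numpy 2.4.6, matplotlib 3.10.9 and SciPy 1.17.1, and the fits were tested on simulated data. Depth was 36518 to 3842012 reads per cell, so summed levels have narrow counting intervals that leave out differences between animals.

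The factors, gene lists and marker lists were chosen with earlier results of these data known. Named genes are all 9 factors, the 2 most abundant genes of each list without a call, and the 3 genes most like each factor, of which 1 is not reported here. Some named genes fall outside this rule and were named with their values already seen. They are ONECUT2, CEBPE, DDIT3 and the dissociation and early response genes other than HSPA1A and BTG2. CREB3L3 and CPS1, named for a DESeq2 call, are also among them. Lengths are those in the authors' table. Sequences were not used here.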

Additional observations from a re-analysis of the deposited data

Results flagged for a closer look

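Each factor's level and its share of cells were screened for a gestation stage far from the other 5, in 18 sets of 6 stages, and 1 stood out. ONECUT1 reads were found in 68.5% of thinned cells on gestational days 100 to 120, against 86.7% to 97.4% in the other gestation stages. The gap to the nearest stage was 0.631 of the whole range, above Dixon's limit for 6 values. Chance passes this limit in about 1 in 20 sets. The same stage had 940 CPM of the listed dissociation and early response genes and the lowest median number of genes per cell, 5171, and their part in the low share was not tested. Of the 9 factors, 7 had their lowest share of thinned cells with at least 1 read over all stages there, ONECUT1 among them. For cells with 5 or more reads this held for HNF4A, ONECUT1 and PROX1. FOXA1, FOXA3, CEBPA and NR1H4 were then lower in another stage, such as FOXA1 at 22.4% on lactation day 15 and 27.6% on days 100 to 120. How many of all genes had their lowest share in that stage was not counted.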

How the results depend on the processing

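Factors called numbered 0 of 9 in each comparison under every setting run, except that DESeq2 called 1 (CEBPB) for the trend. Of 495 recomputed log2 changes of the factors, 480 kept their direction and side of the threshold, 14 turned sign, in 9 of 36 results, and 1 passed it. Scaled by library size alone, NR1H4 was at 0.10 between lactation and gestation and PROX1 at -0.10 between gestation and virgin. With each cell weighted equally (limma) they were at 0.069 and -0.059. Leaving out 1 stage at a time gave these ranges where a sign turned. Between lactation and gestation FOXA3 ran from -0.027 to 0.55 and CEBPA from -0.39 to 0.67. Between gestation and virgin PROX1 ran from -0.079 to 0.11. Between lactation and virgin CEBPA ran from -0.18 to 0.87 and ONECUT1 from -0.16 to 0.00087. For the trend FOXA3 ran from -0.90 to 0.57, NR1H4 from -0.40 to 0.033 and PROX1 from -0.23 to 0.76. Differences in the share of cells, lactation minus gestation in points, ran from -0.387 to 1.67 for HNF4A, -10.6 to 0.713 for FOXA1, -1.57 to 3.40 for CEBPA, -1.09 to 4.40 for NR1H4 and -11.8 to 1.57 for ONECUT1, and PROX1 was at -6.80e-05 without thinning. The cause of these turns was not tested.

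Over all genes, calls between lactation and gestation numbered 12, with 6 to 523 under the other settings (523 by DESeq2) and 1 to 45 without 1 stage (45 without lactation day 7). They numbered 1 between gestation and virgin (1 to 117), 0 between lactation and virgin (0 to 96) and 6 for the trend (4 to 306, and 0 to 9 without 1 stage). Where a lactation stage is left out, the lone one is assumed to vary like the other groups. Leaving out the cells that carry other markers was chosen after seeing the data. Sums per plate or animal, planned as a view of the spread within a stage, were not run, since cell names give neither. No paired analysis was possible because the labels carry no replicate numbers. With 1 sample per stage, a stage and its animals cannot be told apart.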
